A study of Mus musculus with 8 samples.

Results

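A set of circadian clock genes was followed in newborn calvaria, the bony vault of the skull, from mice with and without Girk3, a subunit of G protein-gated potassium channels whose gene is Kcnj9. The 10 genes were Bhlhe40, Bhlhe41, Per1, Per2, Per3, Cry1, Nr1d1, Nr1d2, Dbp and Ciart, chosen by symbol among the 49315 gene IDs of the count table, and all 10 passed the filter that left 17743 tested genes. They were chosen with their difference between the genotypes known, so that difference is given as a description with no p-value. The 4 wild-type and 4 Girk3 knockout samples came from female mice of strain C57BL6, 2 to 3 days old, with 1 bulk RNA library per sample. The deletion is global, so every cell type of the tissue carries it. Neither the hour of tissue collection nor the litter is given in the sources used here.

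The circadian clock is a feedback loop of transcription. CLOCK and BMAL1 (gene Arntl) bind E-box sequences and switch on the Per, Cry, Nr1d, Bhlhe40, Bhlhe41, Dbp and Ciart genes, whose products mostly act back on the loop as repressors. PER and CRY proteins inhibit CLOCK and BMAL1, BHLHE40 and BHLHE41 compete with them for E-boxes, CIART represses them, and the REV-ERB receptors encoded by Nr1d1 and Nr1d2 silence Arntl at ROR elements. DBP carries the rhythm outward through D-boxes. In bone the clock runs in osteoblasts and osteoclasts, and mice lacking Per or Cry genes are known for high bone mass.

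The libraries held 35.4 M to 54.3 M counts, so 3 counts were at most 0.0816 CPM, each library's counts scaled to a common total, and the lowest count of a member in any library was 85. Kcnj9 held 0 to 4 counts in wild-type libraries and 2 to 9 in those labelled knockout, so it does not check the labels at this depth, and knockout below means libraries so labelled. All 8 osteoblast markers were detected in every library. Skeletal muscle RNA was uneven, with summed levels of 10 muscle markers of 11.3 CPM in wild-type replicate 3 and 40.1 and 133 CPM in knockout replicates 2 and 3, against 637 to 2459 CPM in the other 5 libraries. Reads were found in 28520 genes in knockout replicate 4 and in 24545 to 25729 genes in each other library. Of 17743 genes, 234 passed the test between genotypes, which is edgeR's quasi-likelihood test at an adjusted p under 0.05, and 66.2% of them were lower in knockout (46.7% when scaled by library totals alone).

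Promoter sequence is shown for 4 members whose RefSeq window (GRCm38.p6, 250 bases before to 50 after the start) holds an exact match to a clock motif. Capitals mark the E-box CACGTG in Ciart, Bhlhe41 and Cry1 and the D-box TTATGTAA in Per3. All 4 genes lie on the minus strand and are printed 5′ to 3′ along the gene. The windows are chr3:95882179-95882478 for Ciart, chr6:145865371-145865670 for Bhlhe41, chr10:85185005-85185304 for Cry1 and chr4:151044616-151044915 for Per3.
Ciart: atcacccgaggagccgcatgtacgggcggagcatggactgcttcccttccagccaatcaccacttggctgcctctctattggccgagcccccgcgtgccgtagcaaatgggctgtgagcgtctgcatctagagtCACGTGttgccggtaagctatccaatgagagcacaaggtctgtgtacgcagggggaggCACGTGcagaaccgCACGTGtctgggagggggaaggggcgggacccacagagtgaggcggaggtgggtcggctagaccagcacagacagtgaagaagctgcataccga
Bhlhe41: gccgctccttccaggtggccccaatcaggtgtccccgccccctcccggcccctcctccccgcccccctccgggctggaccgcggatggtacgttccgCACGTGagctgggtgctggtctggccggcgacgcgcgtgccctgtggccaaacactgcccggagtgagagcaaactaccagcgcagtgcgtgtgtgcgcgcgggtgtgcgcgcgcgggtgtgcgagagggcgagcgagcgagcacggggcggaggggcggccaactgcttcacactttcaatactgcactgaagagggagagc
Cry1: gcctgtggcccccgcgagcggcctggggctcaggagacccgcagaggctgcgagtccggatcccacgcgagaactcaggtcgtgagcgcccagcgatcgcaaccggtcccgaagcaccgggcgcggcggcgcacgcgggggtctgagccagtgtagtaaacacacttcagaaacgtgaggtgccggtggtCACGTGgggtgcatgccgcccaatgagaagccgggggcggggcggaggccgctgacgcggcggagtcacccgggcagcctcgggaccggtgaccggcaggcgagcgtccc
Per3: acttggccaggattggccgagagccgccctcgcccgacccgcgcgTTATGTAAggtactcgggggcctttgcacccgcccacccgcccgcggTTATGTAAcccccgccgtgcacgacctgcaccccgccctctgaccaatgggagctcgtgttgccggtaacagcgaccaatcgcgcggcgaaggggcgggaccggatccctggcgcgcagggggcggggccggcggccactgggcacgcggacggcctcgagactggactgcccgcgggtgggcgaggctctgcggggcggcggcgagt

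Windows were on file for 8 of the 10 members, 9 windows in all, since Per1 has 2 starts. Both strands were searched for the E-box CACGTG, the E'-box CACGTT, the D-box TTATGTAA, the ROR element core TAGGTCA and the CRE TGACGTCA, and no matches overlapped. The E-box was found in 4 of the 8 genes (Bhlhe41, Per1, Cry1 and Ciart), against 7.15% of all 32851 windows. Ciart held it 3 times, starting 116, 58 and 44 bases before the start site, and 0.0883% of all windows hold 3 or more. In Bhlhe41 it began 153 bases upstream, in Per1 166 bases upstream of the first start, and in Cry1 60 bases upstream. The D-box was found in Per3 alone among the members, at 205 and 158 bases upstream, and 0.0213% of all windows hold 2 or more. The E'-box lay in Cry1 and Nr1d1, against 4.68% of windows. No match to the ROR element core or the CRE was found in the members' windows, against 2.61% and 1.79% of all windows. A match is a stretch of letters and not a measured binding site.

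**Figure D1:**
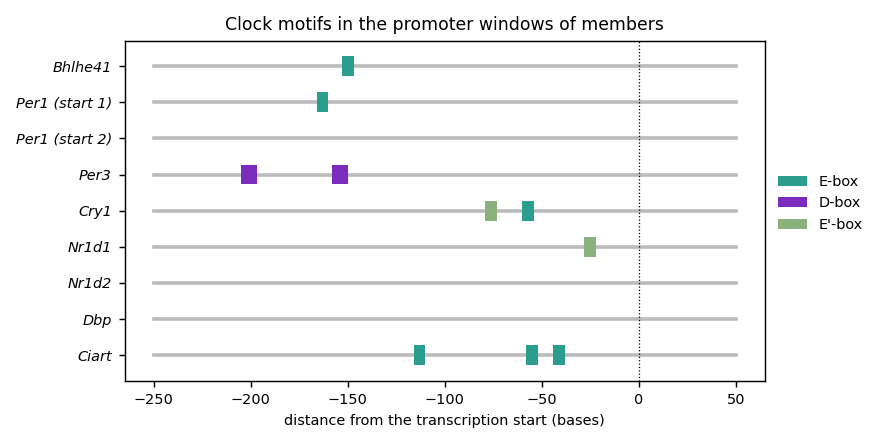
Exact matches to clock motifs in the promoter windows of 8 members, plotted by distance from the transcription start in bases (dotted line at the start; grey bars are the windows, coloured blocks the matches). Ciart shows 3 E-boxes and Per3 shows 2 D-boxes, while Nr1d2, Dbp and the second start of Per1 show none of the 5 motifs.

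Per length of exon, the repressor Bhlhe40 was the most abundant of the 10 in wild type, at 18.7 ± 1.75 CPM per kb (SD, n = 4). Nr1d2 followed at 9.83 ± 0.473, Cry1 at 7.85 ± 0.355 and Nr1d1 at 4.70 ± 0.554 CPM per kb. Each of these 4 lay above the next gene in the order without overlap between the 4 wild-type libraries. Per1 (3.94 ± 0.255 CPM per kb) overlapped Per3 (3.44 ± 0.299). Dbp (2.55 ± 0.192), Bhlhe41 (2.28 ± 0.432) and Per2 (2.09 ± 0.157) overlapped their neighbours as well. Ciart was the lowest at 0.940 ± 0.111 CPM per kb. Per length, the period genes therefore stood in the order Per1, Per3, Per2 by mean level, with the first and the second not separated. This order depends on the merged exon length. The places of Nr1d1, Dbp and Bhlhe41 among the 10 also depend on the strand setting of the counting, which is not given, since opposite-strand genes overlap their exons. In CPM not divided by length, Per3 (30.9 to 37.1) lay above Per1 (20.2 to 23.6) in wild type.

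**Figure D2:**
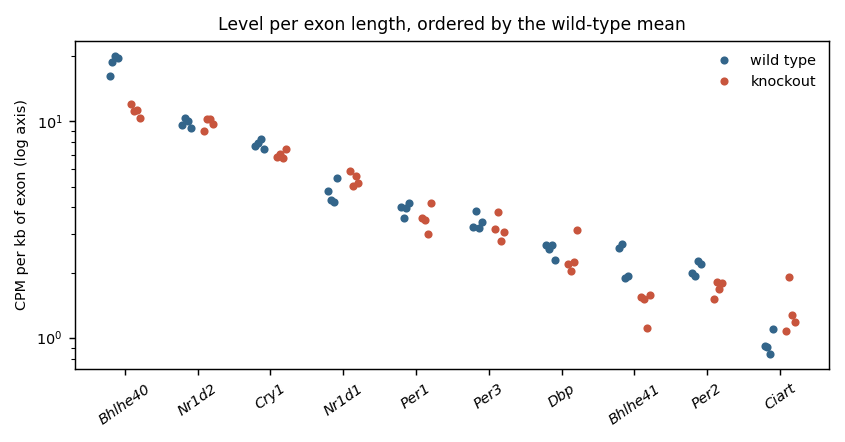
Level per exon length (CPM per kb, log axis) of the 10 genes in 4 wild-type (blue) and 4 knockout (red) libraries, 1 point per library, ordered by the wild-type mean. Bhlhe40 stands above all others in wild type at 18.7 CPM per kb and Ciart lowest at 0.940.

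Across the 10 genes, 1 was called between genotypes, Bhlhe40, which fell in knockout (1.32% of all tested genes were called, 0.874% lower and 0.445% higher). DESeq2 called 2, Bhlhe40 and Bhlhe41 (6.3% of genes with an adjusted p), and limma-voom 1 (0.941%). The log2 change was below 0 for 8 of the 10, with a median of -0.12 against 0.00 over all tested genes. In 4 of the 10, Bhlhe40, Bhlhe41, Per2 and Cry1, all knockout libraries lay below all wild-type libraries, as did 5.96% of tested genes. None lay wholly above, as 4.63% of tested genes did. Scaled by library totals alone, Per2 and Cry1 overlapped between the groups, while Bhlhe40 and Bhlhe41 did not. Since the genes were chosen on this comparison, nothing is read from these shares.

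**Figure D3:**
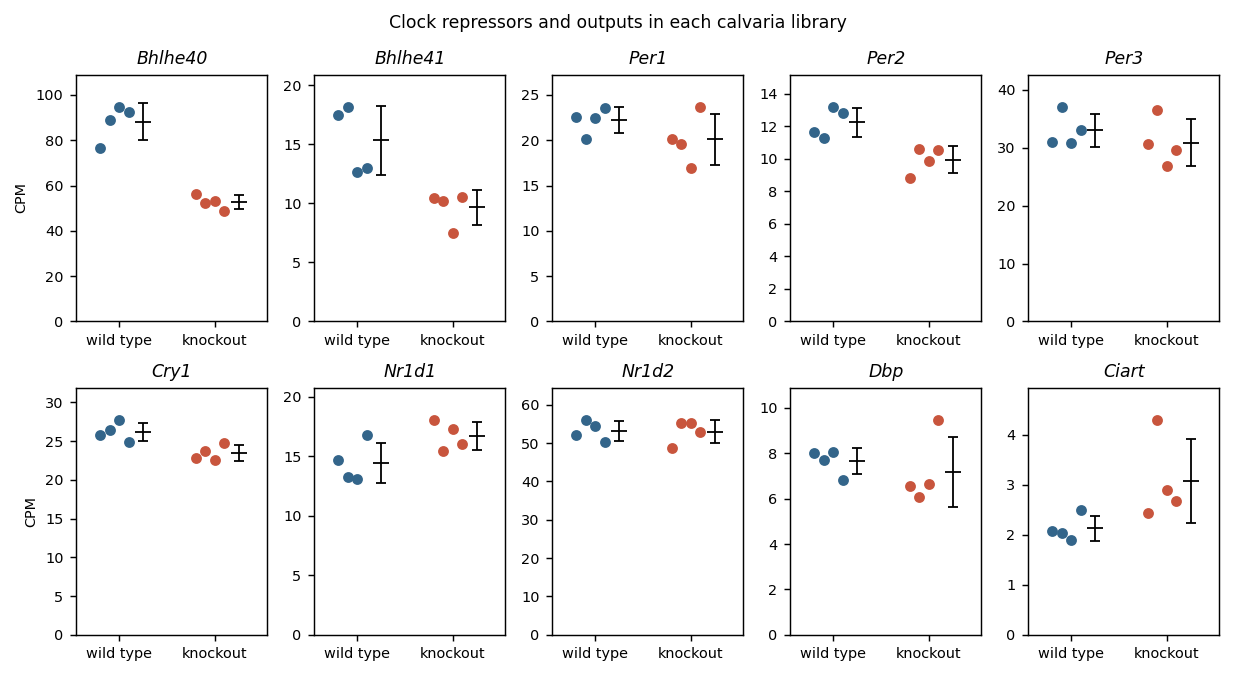
CPM of each gene in each library (points; wild-type replicates 1 to 4 in blue and knockout replicates 1 to 4 in red, left to right), with the mean and SD of each group (black bars, n = 4). Bhlhe40, Bhlhe41, Per2 and Cry1 do not overlap between the groups, and the other 6 do. Scaled by library totals alone, Per2 and Cry1 overlap as well.

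Bhlhe40 (ENSMUSG00000030103, chromosome 6 from 108660629 to 108666925, plus strand, GRCm38/mm10) encodes a basic helix-loop-helix repressor that also responds to growth factors, cAMP and low oxygen. Wild-type replicates 1 to 4 held 76.4, 89.0, 94.8 and 92.5 CPM, and knockout replicates 1 to 4 held 56.4, 52.3, 53.1 and 49.0 CPM. Every knockout library thus stood well below the lowest wild-type library. The log2 change was -0.74 ± 0.0799 (SE), or 0.598 of the wild-type level. It stayed between -0.81 and -0.70 whichever library was left out, and was called each time. These fits reuse the libraries on which the gene was chosen and called 57 to 608 genes in all, so the calls are a description only. Without the 3 muscle-poor libraries, which leaves 3 wild-type and 2 knockout, the log2 change was -0.70 and the call was lost. A gene on the opposite strand, 0610040F04Rik, overlaps 2.51% of its exon bases and held at most 7 counts in any library.

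Bhlhe41 (ENSMUSG00000030256, chromosome 6 from 145858243 to 145865558, minus strand), the paralogue of Bhlhe40, had a lower level and a difference of the same sign. Its wild-type libraries held 17.5, 18.2, 12.7 and 13.0 CPM and its knockout libraries 10.4, 10.2, 7.46 and 10.6 CPM. Wild type split into a higher pair (replicates 1 and 2) and a lower pair, both above knockout, and knockout replicate 3 stood below the rest. The log2 change was -0.67 ± 0.147 (SE), without a call in the main test, and ran from -0.74 to -0.56 with single libraries left out. The calls with DESeq2, without the count filter and with the replicate number as a block are the exceptions among 15 alternatives. Gm43909 overlaps 19% of its exon bases on the opposite strand, with a wild-type level of 0.710 ± 0.257 CPM and a knockout level of 0.765 ± 0.263 CPM (SD, n = 4 each). Within a library the Bhlhe40 level per kb was 8.52 ± 2.23 times that of Bhlhe41 in wild type and 7.97 ± 1.54 times in knockout (SD, n = 4 each), so the ratio overlapped between genotypes.

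Macrophages express both of these repressors, and their markers are given beside them. All 10 macrophage markers had a log2 change below 0, as did 8886 of 17743 tested genes, and none was at 0 in any library. In edgeR 3 of the 10 fell, Lyz2, Ctss and Cx3cr1 (0.874% of all tested genes were called lower). DESeq2 called 6 (6.3% of genes with an adjusted p) and limma-voom 3 (0.941% of all tested genes). Their summed level was 621 to 799 CPM in wild-type libraries and 485 to 557 CPM in knockout libraries. The mean log2 level differed by -0.52 (two-sided exact permutation p = 0.0286, the smallest that 4 against 4 allows, and 0.0857 adjusted over 6 marker lists). The osteoblast list differed by -0.14 with the same p-values, and exact permutation p ran from 0.657 to 1 for the muscle, skin, fat and brain lists. The part of these cells in the values of Bhlhe40 and Bhlhe41 was not tested. In bulk tissue, fewer cells of a type and less RNA per cell cannot be told apart.

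The period genes encode the PER proteins, which carry CRY into the nucleus and set the length of the cycle. Per2 (ENSMUSG00000055866, chromosome 1 from 91415982 to 91459324, minus strand) held 11.7, 11.3, 13.2 and 12.8 CPM in wild-type and 8.83, 10.6, 9.87 and 10.5 CPM in knockout libraries. The groups did not overlap, though the gap between the nearest libraries was small. Scaled by library totals alone, they overlapped slightly, through knockout replicate 2 and wild-type replicate 2. Its log2 change was -0.30 ± 0.095 (SE), and -0.34 to -0.25 with single libraries left out. Per1 (ENSMUSG00000020893, chromosome 11 from 69095217 to 69109960, plus strand), the period gene that light, cAMP and glucocorticoids induce fastest, held 22.6, 20.2, 22.5 and 23.6 CPM against 20.2, 19.6, 16.9 and 23.7 CPM. Knockout replicate 3 was its lowest library and knockout replicate 4 its highest, so the groups overlapped throughout. The log2 change of Per1 was -0.15 ± 0.0996 (SE). It was -0.23 without knockout replicate 4, -0.07 without knockout replicate 3 and -0.01 without the 3 muscle-poor libraries. Per3 (ENSMUSG00000028957, chromosome 4 from 151003652 to 151044665, minus strand), the period gene least needed for rhythm, held 31.1, 37.1, 30.9 and 33.0 CPM against 30.6, 36.5, 26.8 and 29.5 CPM, a log2 change of -0.10 ± 0.0979 (SE). It was -0.18 without knockout replicate 2 and -0.04 without knockout replicate 3. Replicate 2 was the highest library for Per3 in both groups.

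Cry1 (ENSMUSG00000020038, chromosome 10 from 85131700 to 85185064, minus strand) encodes the strongest direct inhibitor of CLOCK and BMAL1. It held 25.8, 26.4, 27.7 and 24.9 CPM in wild-type and 22.9, 23.7, 22.5 and 24.8 CPM in knockout libraries. Wild-type replicate 4 and knockout replicate 4 were nearly level, and all other libraries were farther apart. Scaled by library totals alone, the groups overlapped. The log2 change was -0.16 ± 0.0679 (SE), and -0.18 to -0.12 with single libraries left out. Cry1 had the smallest spread of the 10 in each group, with a coefficient of variation of 4.53% in wild type and 4.31% in knockout. Its paralogue Cry2 held 24.9 ± 1.68 CPM in wild type (SD, n = 4).

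The REV-ERB genes differed from each other. Nr1d1 (ENSMUSG00000020889, chromosome 11 from 98767932 to 98775333, minus strand) held 14.7, 13.3, 13.1 and 16.8 CPM in wild-type and 18.1, 15.4, 17.3 and 16.0 CPM in knockout libraries. Only wild-type replicate 4 reached into the knockout range. Its log2 change was 0.21 ± 0.0969 (SE), and 0.17 to 0.29 with single libraries left out. Thra overlaps 8.55% of its exon bases on the opposite strand, at a wild-type level of 111 ± 3.42 CPM and a knockout level of 120 ± 9.49 CPM (SD, n = 4 each). No source used here gives the strand setting of the counting, which leaves the Nr1d1 value and ratios built on it less certain. Nr1d2 (ENSMUSG00000021775, chromosome 14 from 18204054 to 18239127, minus strand) held 52.0, 56.0, 54.5 and 50.3 CPM against 48.7, 55.2, 55.2 and 52.8 CPM, a log2 change of 0.00 ± 0.0678 whose sign changed under 7 of 15 alternatives. The groups covered the same range.

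Dbp (ENSMUSG00000059824, chromosome 7 from 45705088 to 45710203, plus strand), the PAR bZIP activator whose transcript swings most widely in many adult tissues, was low here. It held 8.01, 7.72, 8.05 and 6.81 CPM in wild-type and 6.56, 6.07, 6.67 and 9.47 CPM in knockout libraries. Knockout replicate 4 was above every wild-type library and the other 3 knockout libraries were below every one. The log2 change was -0.09 ± 0.142 (SE), -0.24 without knockout replicate 4, -0.01 without knockout replicate 2 and 0.10 without the 3 muscle-poor libraries. Sphk2 overlaps 18% of its exon bases on the opposite strand, at a wild-type level of 19.9 ± 1.70 CPM and a knockout level of 17.5 ± 1.87 CPM (SD, n = 4 each). With the strand setting of the counting not given, the Dbp value and ratios built on it are less certain too. The part of the wider gene detection of knockout replicate 4 in its Dbp value was not tested.

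Ciart (ENSMUSG00000038550, chromosome 3 from 95878503 to 95882251, minus strand), the repressor with 3 E-boxes in its window, was the least abundant. Its wild-type libraries held 2.07, 2.04, 1.90 and 2.48 CPM and its knockout libraries 2.42, 4.29, 2.89 and 2.67 CPM. Knockout replicate 2 stood well above the rest. The log2 change was 0.53 ± 0.2 (SE), 0.33 without knockout replicate 2, 0.63 without knockout replicate 1 and 0.22 without the 3 muscle-poor libraries. Neither Ciart nor Nr1d1, the genes with a positive change, was called in any of the 15 alternatives.

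**Figure D4:**
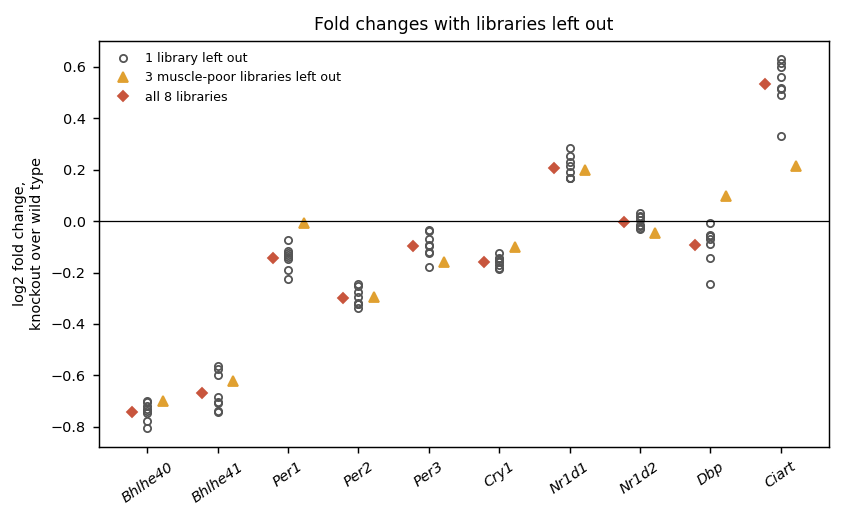
Log2 fold change, knockout over wild type, of each gene with all 8 libraries (red diamonds), with 1 library left out (open circles, 8 per gene) and without the 3 muscle-poor libraries (yellow triangles). Bhlhe40 stays between -0.81 and -0.70, whereas Ciart is at 0.53 with all libraries and 0.22 without the muscle-poor ones, and Dbp at -0.09 and 0.10.

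Within-group spread enters any test of the difference known when the genes were chosen, so it is given as a description. The median coefficient of variation of the 10 was 8.11% in wild type and 10.7% in knockout, and 5 of the 10 lay below the median of all 11351 tested genes with a mean of 2 to 100 CPM, which was 8.45% in wild type and 9.41% in knockout. It ran up to 18.9% in wild type (Bhlhe41) and up to 27.3% in knockout (Ciart). Both medians lay within the middle range of those genes, whose quartiles were 5.52% and 12.7% in wild type and 6.15% and 14.1% in knockout.

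Of 32 other clock genes, none was called by edgeR or limma-voom (1.32% and 0.941% of all tested genes). DESeq2 called 1 (6.3% of genes with an adjusted p), Kdm5a, a histone demethylase that works with CLOCK and BMAL1 (adjusted p = 0.0166). Kdm5a held 54.5 to 61.2 CPM in wild-type libraries and 73.7, 94.2, 95.7 and 59.9 CPM in knockout replicates 1 to 4. Its groups overlapped through knockout replicate 4, and its highest values were in the muscle-poor knockout replicates 2 and 3. Before adjustment, 5 of the 32 had a p under 0.05 in edgeR, 2 higher and 3 lower, as did 17.4% of all tested genes. The median log2 change was -0.04. In 5 of the 32 the groups did not overlap (10.6% of tested genes), 4 lower and 1 higher in knockout. Without knockout replicate 4, 2 were called, Kdm5a (log2 change 0.58, edgeR adjusted p = 0.014) and Tspan4 (-0.28, 0.0422).

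No activator was called in edgeR. Arntl, which REV-ERB proteins silence, held 16.0 to 17.1 CPM in wild-type and 14.1 to 15.8 CPM in knockout libraries, without overlap. Its log2 change was -0.15 ± 0.0743 (SE, edgeR adjusted p = 0.312). Its partner genes Clock and Npas2 were at 0.06 ± 0.0896 (0.773) and -0.08 ± 0.107 (0.753). Rora, whose product activates Arntl, was at 0.12 ± 0.0975 (edgeR adjusted p = 0.55). Within a library, Nr1d1 per kb was 2.12 ± 0.238 times Arntl in wild type and 2.73 ± 0.0841 times in knockout (SD, n = 4 each). This ratio did not overlap between the groups; it was picked after its values were seen from 10 ratios computed, and the other 9 overlapped.

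Among other repressors, Nfil3, which opposes DBP at D-boxes, held 14.8 ± 0.297 CPM in the wild-type libraries and 12.7 ± 0.851 CPM in the knockout libraries (SD, n = 4 each), without overlap. Its log2 change was -0.22 ± 0.0797 (SE, edgeR adjusted p = 0.185). Cry2 was at -0.02 ± 0.0801 (0.93). The PAR bZIP relatives of Dbp were Tef, at 0.00 ± 0.0676 (edgeR adjusted p = 0.995), and Hlf, at -0.08 ± 0.119 (0.76).

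**Figure D5:**
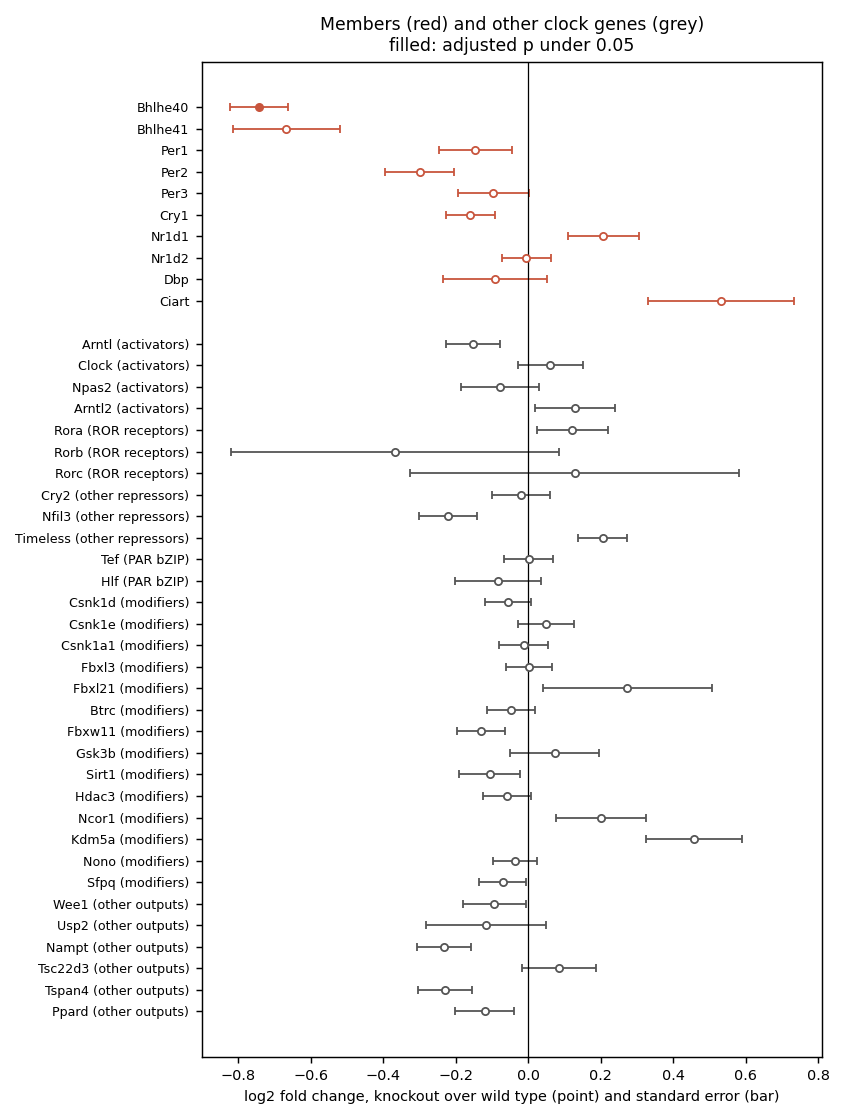
Log2 fold change, knockout over wild type (points), with its standard error (bars), for the 10 members (red) and 32 other clock genes (grey). A filled point passed an adjusted p under 0.05 in edgeR, which only Bhlhe40 did. The 10 members were chosen on this comparison, so that call is a description only.

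Transcripts were also compared for gene lists of pathways that act on some of these genes from outside the loop. The lists were not tested against each other, and pathway activity was not measured. Of 12 cAMP-responsive and immediate early genes, 8 fell and none rose in edgeR (1.32% of all genes were called), with a median log2 change of -0.72. DESeq2 called 10 of the 12, all lower (6.3% of genes with an adjusted p), and limma-voom 8 (0.941% of all tested genes). Jun, Fos, Egr1 and Dusp1 fell by 1.04, 1.43, 0.76 and 0.79 on the log2 scale. These 12 ran from -1.96 to -0.18, with Per1 at -0.15 and Bhlhe40, chosen on this comparison, at -0.74. The part of these pathways in the values of Per1 and Bhlhe40 was not tested. Of 9 glucocorticoid-induced genes other than Per1, 2 fell in edgeR, Sgk1 by 0.46 and Errfi1 by 0.58, and none rose (0.874% of all tested genes were called lower). DESeq2 called 5 of the 9, 1 higher and 4 lower, and limma-voom 3, against the same shares of all genes as above. The list's median was 0.04. Mt1 (-0.95 ± 0.193, SE, edgeR adjusted p = 0.0537) was called by DESeq2 and limma-voom but not by edgeR, and Zbtb16 (1.12 ± 0.311, edgeR adjusted p = 0.105) by DESeq2 alone. Of 9 hypoxia-induced genes other than Bhlhe40, none passed in edgeR or limma-voom and 1 passed in DESeq2, with a median of -0.12. Before adjustment, 3 of the 9 had a p under 0.05 in edgeR, all lower in knockout, and 17.4% of all tested genes had such a p in either direction. Ndrg1 was at -0.26 ± 0.073 (SE, edgeR adjusted p = 0.104). Without the 3 muscle-poor libraries none of the 10 edgeR calls in these lists was made.

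By likeness over the 8 libraries, the genes whose log2 CPM followed Bhlhe40 most closely among 13014 were Hs2st1, Pla2g4a and S1pr1, with Pearson r of 0.998, 0.981 and 0.98. For Per1 they were Hic1, Cpne2 and P2ry1 (0.967, 0.967 and 0.947), for Nr1d1 Col6a3, Ddb1 and Traf7 (0.969, 0.968 and 0.966) and for Dbp Ctsl, Setd3 and Mthfs (0.972, 0.972 and 0.97). None of these 12 is a clock gene of the lists used here, which says little because such genes are few among those searched. Group means were not removed, so the genotype difference on which Bhlhe40 was chosen enters its likeness to other genes. With 8 libraries and so many genes searched, values this high are given as a description only.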

How the data were processed

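Bulk RNA sequencing covered calvaria from 4 wild-type and 4 Girk3 knockout females. The authors deposited unnormalized read counts for each Ensembl gene and library. The tools named are bcl2fastq 2.17, STAR 2.5.2b, featureCounts (Subread 1.5.2) and build mm10, per the submitters' processing notes, while neither annotation release nor strand setting is given in the sources used here. Groups came from sample titles and no column was left unused. The design text gives 4 mice of each genotype but does not tie libraries to litters or say whether tissue was pooled, so p-values measure the spread between these samples.

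Symbols and coordinates came from GENCODE mouse M21 on the same build (GRCm38), and 48970 IDs matched. Genes were kept with edgeR's filterByExpr (minimum count 10, minimum total 15), scaled with TMM factors and compared by the edgeR 4.0.16 quasi-likelihood test (R 4.3.3, two-sided, Benjamini-Hochberg over all tested genes, threshold 0.05). Log2 fold changes (knockout over wild type) and their standard errors come from this fit. CPM used totals multiplied by TMM factors, log2 CPM a prior count of 2, and marker means a pseudocount of 0.1 CPM. Levels per kb used the merged exon length. Library pairs differed beyond sampling noise, so none was counted as 1. Intervals were not computed for single shares; the floor of 3 counts covers counting error only, because reads lacking molecular identifiers may repeat a molecule.

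The members and gene lists were chosen with earlier results of these data known, and the immediate early and macrophage lists overlap lists whose direction was already seen, so their counts support nothing independently. Named genes were all members, 8 preset clock genes and any called, and up to 4 genes of smallest p per outside pathway list. For Bhlhe40, Per1, Nr1d1 and Dbp the 3 genes of highest Pearson r were named among genes of at least 1 CPM. Alternatives were library totals, DESeq2 size factors, DESeq2 1.42.0, limma-voom (limma 3.58.1), no count filter, the replicate number as a block, each library left out and the 3 muscle-poor libraries left out. Promoter windows came from RefSeq (GRCm38.p6). Exact permutation tests used SciPy 1.17.1 and figures matplotlib 3.10.9.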

Additional observations from a re-analysis of the deposited data

Results flagged for a closer look

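In 48 groups of 4 libraries (the 10 members, 8 other clock genes and 6 marker lists), 5 had 1 library well apart from the remaining 3. About 1 in 20 groups, or 2.4 here, would show this by chance. Bhlhe41 was at 7.46 CPM in knockout replicate 3, against 10.2 to 10.6 CPM in the other knockout libraries. Wild-type replicate 3 held 66.4 CPM of Tef, and the other wild-type libraries 73.2 to 74.5 CPM. Wild-type replicate 1 held 7.54 CPM of Hlf, and the others at least 9.69 CPM. The mean log2 CPM of the muscle markers was -0.49 in wild-type replicate 3, against 5.81 to 6.25. That of the brain markers was 2.39 in wild-type replicate 1, against -0.08 to 0.26.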

How the results depend on the processing

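The number of called genes, 234, was 355 without the count filter, 965 with DESeq2, 126 with the replicate block and 8 without the 3 muscle-poor libraries, and ran from 57 (without knockout replicate 2) to 608 (without knockout replicate 4) with single libraries left out; fewer samples enter the last 2 kinds of fit, and otherwise the cause was not tested. Leaving out wild-type replicate 2, 3 or 4 or knockout replicate 3 gave 79, 75, 105 and 82. The share of calls lower in knockout, 66.2%, was 46.7% with library totals, 56.2% with DESeq2, 82.5% with the block and 49.8% without knockout replicate 4. Of the members, 2 were called without the count filter, with the replicate block and with DESeq2 (Bhlhe40 and Bhlhe41 each time), and 0 without the muscle-poor libraries, against 1 with each single library left out. Other clock genes called were 1 with DESeq2, 0 with the block and 0 to 2 with single libraries left out, where only the set without knockout replicate 4 gave any. Of the outside pathway genes, 10 were called, 16 with DESeq2, 12 with the replicate block, 0 without the muscle-poor libraries and 6 (without knockout replicate 2) to 11 with single libraries left out. Bhlhe40 kept its direction under all 15 alternatives, as did Bhlhe41, Per1, Per2, Per3, Cry1, Nr1d1 and Ciart, while Nr1d2 and Dbp changed sign under 7 and 1. Same-numbered libraries did not deviate together in all pairs (correlations of deviations 0.255, -0.179, 0.34 and -0.00498 for replicates 1 to 4). These values cannot tell whether some pairs share a litter or batch, and the main test used no pairing. All 6 marker lists kept their direction with library totals; the exact permutation p of the osteoblast list went from 0.0286 to 0.0571, and no list passed once adjusted over the 6 lists (smallest adjusted p 0.0857 and 0.171, where 0.0286 is the smallest unadjusted p that 4 against 4 allows), which says nothing about stability. The lowest member count in a library was 85, for Ciart, so counting error weighs most there.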

Other observations

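Among the 32 other clock genes, promoter windows were on file for 24. Tef, Sirt1 and Tspan4 held the E-box CACGTG, with Sirt1 holding it at 115 and 43 bases before its start. Arntl, the gene that ROR and REV-ERB receptors control, held the ROR element core TAGGTCA in the window of its second start, from base 31 to base 37 after that start, and Nfil3 held the same core on the opposite strand. Timeless held the D-box, and Hlf the CRE. In wild type Tef was the most abundant PAR bZIP gene of calvaria per length, at 3.60 ± 0.391 times the Dbp level per kb in the same library (SD, n = 4), and 3.92 ± 0.740 times in knockout.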
